A study of Mus musculus with 15 samples.

Results

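The 6 libraries described here were made from vehicle-treated Col4a3-/- mouse podocytes that came as 2 separate sets of 3. They were picked by labels and table columns out of 15 libraries in the series, with earlier results of these data known. Set 1 is the vehicle knockout set deposited beside knockout cells treated for 24 h with apolipoprotein M (ApoM) or with CYM50358, which blocks S1PR4, a receptor for the lipid mediator sphingosine-1-phosphate. Set 2 is the vehicle knockout set deposited beside vehicle-treated Col4a3+/+ (wild-type) cells. Both sets carry the titles IMAS 1 to IMAS 3, written with a space in set 1 and with a low line in set 2. Genotype, cell type and treatment are labelled alike, so the comparison asks how far cells with 1 description differed between preparations. The labels give set 1 under a cell type tag and set 2 under a cell line tag. They name no passage, culture temperature, differentiation step, sex, date or sequencing run for either set, nor whether the replicates were separate cultures. A p-value here therefore weighs the difference between the sets, whatever its source, only against the spread of libraries within a set. Set and preparation are the same split, so the biology of the cells and the batch cannot be told apart in any result below.

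Podocytes are the epithelial cells that wrap the capillaries of the kidney glomerulus, and with the endothelium they lay down its basement membrane. Col4a3 encodes the alpha 3 chain of collagen IV, which assembles with the alpha 4 and alpha 5 chains into the mature network of that membrane. Loss of this network is the basis of Alport syndrome. Podocytes in the kidney seldom divide, whereas podocyte lines in culture can divide, make fibrillar matrix and change their lipid metabolism with culture conditions. Genes of the G2 and M phases are transcribed as cells prepare for mitosis, and many of their promoters carry a CHR element together with CCAAT boxes. Genes of DNA replication more often carry sites for E2F factors.

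The promoters of the 3 G2 and M phase genes and of the replication gene with the largest differences within their lists are shown, because short motifs recur among the promoters of these lists. Each is the 300 bases from 250 before to 50 after a RefSeq transcript start on GRCm38.p6, written 5′ to 3′ along the gene, and capitals mark the motifs found on either strand. These are the CCAAT box, the CHR element, whose letters are TTTGAA, and E2F sites, searched as TTCCCGCC, as TTGGCGC or as TTCGCGC. No marked motif overlapped another.
Mki67, a marker of cycling cells, chr7:135716330-135716629, minus strand: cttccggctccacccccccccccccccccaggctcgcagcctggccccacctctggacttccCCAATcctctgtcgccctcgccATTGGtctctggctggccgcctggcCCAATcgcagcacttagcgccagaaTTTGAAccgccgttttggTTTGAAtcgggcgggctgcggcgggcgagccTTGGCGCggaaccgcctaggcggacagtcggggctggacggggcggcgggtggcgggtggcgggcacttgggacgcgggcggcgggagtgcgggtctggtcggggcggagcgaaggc
Cenpf, a kinetochore protein, chr1:189688037-189688336, minus strand: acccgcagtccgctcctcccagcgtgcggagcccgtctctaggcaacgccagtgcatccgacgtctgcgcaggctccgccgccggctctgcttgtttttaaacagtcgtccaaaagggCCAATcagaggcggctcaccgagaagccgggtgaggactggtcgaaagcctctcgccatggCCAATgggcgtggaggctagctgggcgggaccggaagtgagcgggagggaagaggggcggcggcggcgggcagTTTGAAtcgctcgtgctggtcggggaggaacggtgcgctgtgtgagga
Cenpa, the histone H3 variant of centromeres, chr5:30666636-30666935, plus strand: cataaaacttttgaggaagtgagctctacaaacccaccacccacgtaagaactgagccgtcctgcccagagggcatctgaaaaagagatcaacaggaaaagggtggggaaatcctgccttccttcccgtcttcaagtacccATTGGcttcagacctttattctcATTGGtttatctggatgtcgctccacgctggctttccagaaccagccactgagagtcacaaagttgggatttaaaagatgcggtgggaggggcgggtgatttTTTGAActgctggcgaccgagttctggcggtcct
Mcm10, a replication initiation factor, chr2:5012742-5013041, minus strand: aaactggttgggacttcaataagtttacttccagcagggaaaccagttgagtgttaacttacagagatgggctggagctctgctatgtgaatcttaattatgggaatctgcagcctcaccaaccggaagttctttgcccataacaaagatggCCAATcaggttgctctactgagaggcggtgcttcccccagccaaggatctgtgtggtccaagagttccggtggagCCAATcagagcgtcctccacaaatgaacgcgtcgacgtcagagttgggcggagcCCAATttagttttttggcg
The Mki67 promoter held 3 CCAAT boxes, 2 CHR elements and 1 E2F site. Those of Cenpf and Cenpa each held 2 CCAAT boxes and 1 CHR element, and that of Mcm10 held 3 CCAAT boxes and neither of the others. In the 300-base windows of Cdc6 and Ccne1, both replication genes described below, none of these letters were found. Among 32851 RefSeq promoters of mouse genes, 37.4% held a CCAAT box, 17.9% a CHR element and 5.91% an E2F site. Of the 26 promoters matched to 25 of the 30 G2 and M phase genes, 80.8% held a CCAAT box, 73.1% a CHR element and 15.4% an E2F site. Of the 27 promoters matched to 24 of the 30 replication genes, 63.0% held a CCAAT box, 11.1% a CHR element and 48.1% an E2F site. A match describes the letters in these windows and is not evidence that a factor bound there.

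Levels below are values per 1000000 reads after 1 scaling of all libraries, given as mean ± SD over 3 libraries. A difference is the change in log2(value + 1), set 1 minus set 2, which understates the change of genes with low values. A gene was called when limma gave a Benjamini-Hochberg adjusted p under 0.05 over all 14059 genes tested. The libraries held 57735687 to 62201989 reads in set 1 and 45417221 to 54290968 in set 2. Libraries correlated at 0.994 within set 1 and at 0.996 to 0.997 within set 2, against 0.978 to 0.982 between the sets, over the log2 values of tested genes. Of the tested genes, 2707 (19.3%) were higher in set 1 and 2930 (20.8%) were lower, which makes 5637 (40.1%) in all. On the log2(value + 1) scale 157 called genes (1.12%) were at least 2-fold higher in set 1 and 368 (2.62%) at least 2-fold lower. Fitted to the recovered reads these numbers were 432 and 774 with edgeR and 440 and 785 with DESeq2, since adding 1 shrinks the differences of genes with low values. The sets did not overlap for 7208 genes (51.3%), so a lack of overlap alone says little about a gene here. The middle 90% of genes lay between -0.77 and 0.58 with a median of -0.01. On the first principal component of all 15 libraries, which held 67.7% of the variance, set 1 lay at -24.5 to -23.3 beside the treated knockout libraries at -26.5 to -23.6, set 2 at 12.2 to 12.4 and wild-type cells at 61.1 to 64.7. On the second, with 12.8%, set 2 lay alone at -30.9 to -27.8, while all other libraries lay at 1.57 to 13.3.

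**Figure D1:**
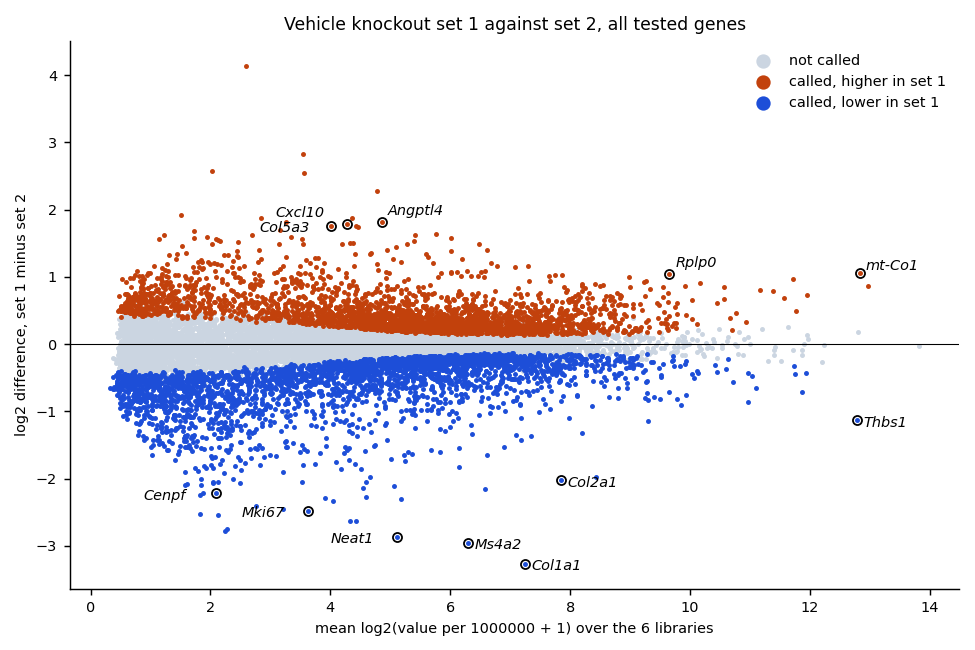
Log2 difference between set 1 and set 2 (vertical axis) against the mean log2(value per 1000000 reads + 1) over the 6 libraries (horizontal axis) for the 14059 tested genes; each dot is a gene and named genes are circled. Of the called genes, 2707 lie above 0 and 2930 below, with Col1a1 lowest at -3.27.

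Several properties of the libraries moved with the set. Mitochondrially encoded genes took 2.60% to 3.18% of the reads of each library in set 1 and 1.3% to 2.02% in set 2. Reads from cytosolic ribosomal protein genes made up 2.69% to 2.99% and 1.82% to 1.95%. Set 1 had reads for 19379 to 19854 genes and set 2 for 21847 to 22151, and with every library thinned to 45417221 reads the numbers were 19183 to 19627 and 21847 to 21905, so the gap remained at equal depth. The difference also followed transcript length: among the 2773 genes with the shortest transcripts 716 were higher and 378 lower in set 1, and among the 2766 with the longest 364 were higher and 788 lower. Median differences of these groups were 0.07 and -0.07, and medians by GC content stayed between -0.03 and 0.01. The part of RNA quality, library making or sequencing in the results below was not tested.

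The targeted gene carried the genotype in both sets. Col4a3 (ENSMUSG00000079465, chr1:82564642-82699780 on mm39) stood at 24.5, 18.5 and 16.7 in set 1 and at 62.2, 61.5 and 82.9 in set 2, against 950.5 to 1276.5 in wild-type cells. Both knockout sets lay far below the wild-type libraries, and the sets did not overlap each other: the difference was -1.74 ± 0.14 (SE; limma adjusted p = 2.1e-06). Which part of the gene is deleted is not given in the sources used here, so whether these reads come from the deleted part is unknown. Col4a4, the partner chain whose gene lies head to head with Col4a3, was also lower in set 1, at 243.3 ± 56.3 against 452.3 ± 42.0 (-0.92). Col4a5, the third chain of the network, stood at 1112 ± 134 and 1179.1 ± 35.7 and was not called (-0.09, limma adjusted p = 0.43).

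Markers of podocytes differed between the sets in both directions, and some that define the cell type in the kidney were at or near 0 in both. Of 28 podocyte markers 27 were found by symbol and 22 were tested. In set 1, 6 were higher and 8 lower, against 19.3% and 20.8% of all tested genes, with a median difference of 0.065. The summed level of the markers was 7253.5 to 7537.1 in set 1 and 6918.5 to 7278.7 in set 2. Their median log2(value + 1) went the other way, at 5.19 to 5.44 in set 1 and 6.25 to 6.40 in set 2. Tcf21 and Ptpro had no read in any of the 6 libraries, and Nphs1 (nephrin) stood at 0.138 ± 0.0991 and 0.0408 ± 0.0392. Synpo, an actin-associated protein of foot processes, stood at 303.3 ± 16.6 in set 1 and 526.3 ± 30 in set 2 (-0.79). Foxc2, a forkhead factor of podocyte development, was also lower in set 1, at 35.3 ± 5.37 against 65.7 ± 5.06 (-0.89). Thsd7a, a membrane protein of podocytes, was higher, at 333.6 ± 27.0 against 163.2 ± 17.4 (1.03). Podxl (podocalyxin) and Nes (nestin) were also higher in set 1, by 0.87 and 0.58, while Plce1 and Dach1, both at low values, were lower by -1.19 and -0.64. Wt1, the transcription factor most used to mark podocytes, stood at 3.32 ± 1.35 and 2.50 ± 0.923 and was not called (limma adjusted p = 0.34).

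Endothelial and leukocyte markers were mostly near 0. The lists of parietal and tubular cells and of mesangial cells and fibroblasts held expressed members in both sets. Counts of calls in these short lists read against the 19.3% of all tested genes called higher and the 20.8% called lower. Of 12 endothelial markers 3 passed the filter, and Pecam1, Cdh5 and Kdr stayed at or below 0.293 in every library of both sets. Their summed level was 27.3 to 31.2 in set 1 and 41.4 to 46.2 in set 2, most of it from Ehd3. Ehd3 was lower in set 1 (-0.60), as was Erg at 0.126 ± 0.149 against 1.10 ± 0.302. Erg passed the filter of 0.5 through the set 2 libraries alone, which fixed its direction in advance. Of 10 leukocyte markers 3 were tested with 1 higher (Cd74, 2.18 ± 0.435 against 0.840 ± 0.531), and the sum was 6.46 to 11 in set 1 and 6.85 to 7.81 in set 2, with Adgre1, Cd3e and Tyrobp among those at 0. Of 18 parietal and tubular markers 10 were tested, 3 higher and 3 lower, with a sum of 999.0 to 1024.7 against 991.2 to 1143.1 and no read for Umod or Aqp2. Aqp1, a water channel of the proximal tubule, stood at 12.3, 17.3 and 15.9 in set 1 and 79.5, 78.7 and 50.9 in set 2 (-2.11). Cldn1, a tight junction protein of the parietal epithelium, was higher in set 1, at 65.6 ± 17.6 against 22.2 ± 1.03 (1.49). Cd44 and Cldn2 were the others higher in set 1 (0.37 and 0.38), and Pax2 and Lrp2 the others lower (-0.32 and -0.43). The median over the 10 tested members was 0.20, and -0.06 without set 1 replicate 2. Of 16 mesangial and fibroblast markers 9 were tested, with 1 higher (Gata3, 0.59) and 4 lower, and sums of 9450.8 to 11207.7 and 9383.1 to 11056.5. Cnn1 and Myh11, contractile genes of smooth muscle, were lower in set 1 (-0.64 and -1.35), as were Meis1 (-0.47) and Pdgfrb (-0.22). The call on Meis1 was lost without set 1 replicate 1 (limma adjusted p = 0.055) or set 2 replicate 3 (0.079). Among genes of the sex chromosomes, Xist was at or near 0 in all 6 libraries. The Y-linked genes Uty (31.0 ± 2.85 and 29.4 ± 1.32) and Kdm5d (37.7 ± 3.17 and 37.6 ± 1.10) were not called, while Eif2s3y stood at 36.3 ± 1.65 and 63.5 ± 1.34 (-0.79, limma adjusted p = 2.2e-06).

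Genes of mitosis were lower in set 1. All 30 G2 and M phase genes were tested, all 30 were called lower in set 1 with limma (29 with edgeR) and 21 of them by at least 2-fold, against 20.8% and 2.62% of all tested genes. Their median difference was -1.34, and they ranged from -2.48 (Mki67) to -0.59 (Aurka, a spindle pole kinase). In bulk libraries fewer dividing cells and less of these RNAs per cell cannot be told apart. Mki67 (chr7:135291513-135318090 on mm39) stood at 3.66, 2.88 and 6.93 in set 1 and at 28.1, 26.0 and 30.5 in set 2. The highest library of set 1 lay well under the lowest of set 2, and the difference was -2.48 ± 0.21 (SE; limma adjusted p = 3.4e-06). Cenpf stood at 1.08, 0.777 and 1.07 against 8.74, 6.94 and 8.99 (-2.22 ± 0.15). Ccna2, the cyclin that drives entry into mitosis, stood at 2.45, 2.35 and 3.73 against 12, 12.2 and 12.4 (-1.80 ± 0.15). Top2a, the topoisomerase that untangles sister chromatids, stood at 9.64, 9.68 and 11.4 against 30.3, 30.9 and 32.8 (-1.52 ± 0.09). The sets did not overlap for any of these 4 genes, nor for 51.3% of all tested genes, and the libraries of set 1 spread most for Mki67. Cenpa (-1.85), the spindle checkpoint kinase Bub1b (-1.84), the spindle motor Kif11 (-1.69), the chromosomal passenger kinase Aurkb (-1.50) and the mitotic kinase Plk1 (-1.40) showed the same direction.

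The other groups of the series place both sets on the same scale, with no test made because they share these vehicle libraries. The summed level of the 30 genes was 98.0 to 119.0 in set 1, 99.3 to 104.0 in ApoM-treated cells and 96.5 to 99.2 in CYM50358-treated cells. It was 283.4 to 309.0 in set 2 and 391.1 to 611.9 in wild-type cells. Set 2 thus lay between the treated-side libraries and the wild-type ones, and Mki67 followed this order, at 4.18 ± 1.56 with ApoM, 3.76 ± 0.822 with CYM50358 and 56.2 ± 16.4 in wild-type cells. Among the wild-type libraries replicate 3 was the lowest for Mki67, at 37.3 against 65.0 and 66.3.

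**Figure D2:**
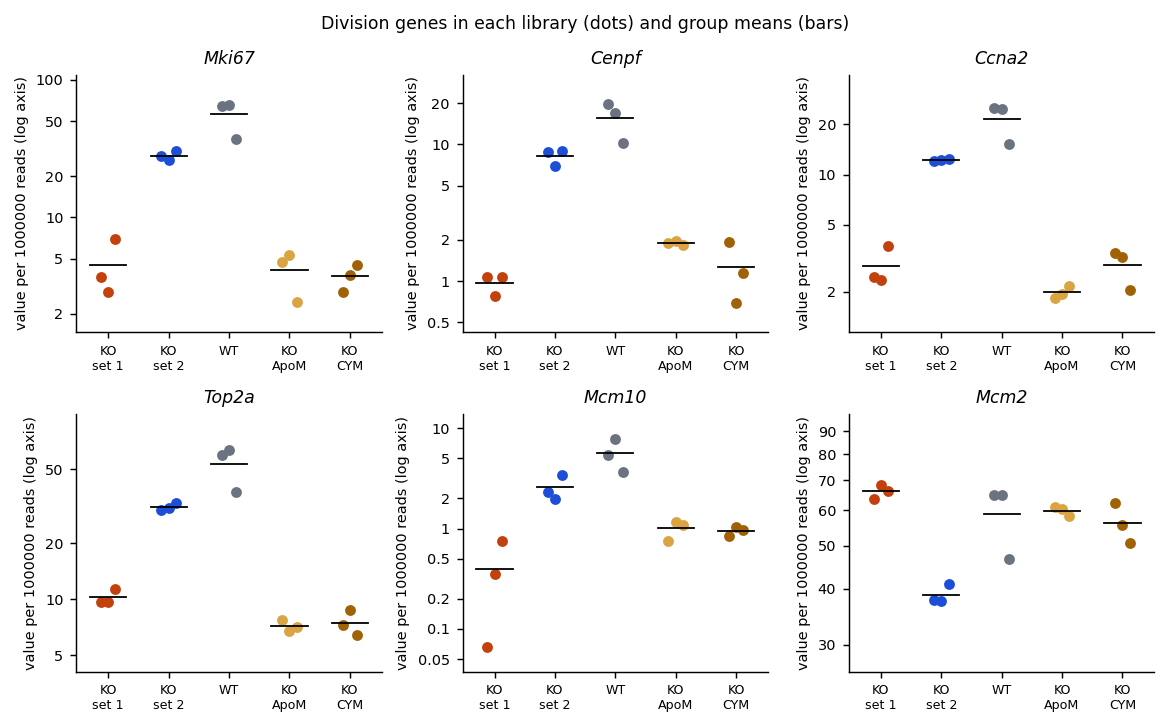
Values per 1000000 reads (log axes that do not start at 0) of 6 division genes in each library (dots) with the group mean (bars), for vehicle knockout sets 1 and 2, wild-type cells (WT) and knockout cells given ApoM or CYM50358 (CYM). Mki67, Cenpf, Ccna2 and Top2a lie lower in all libraries of set 1 than in any of set 2, and Mcm2 lies higher.

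Genes of DNA replication did not move as a block. Of 30 tested, 3 were higher in set 1, 10 lower and 17 not called, with a median of -0.21. Among all tested genes 19.3% were called higher and 20.8% lower. Those that were lower include factors that start or drive S phase. Mcm10 stood at 0.0666, 0.353 and 0.759 in set 1 (4 to 47 reads) and 2.32, 1.95 and 3.45 in set 2 (-1.37 ± 0.21). Only the highest of its set 1 values reached the filter of 0.5, so Mcm10 passed through the set 2 libraries, where it is higher. Cdc6, which loads the replicative helicase, stood at 0.770 ± 0.334 against 2.48 ± 0.323 (-0.99). Ccne1, the G1/S cyclin, stood at 3.16, 3.09 and 3.30 against 6.35, 6.60 and 6.60 (-0.85). Rrm2, the regulated subunit of ribonucleotide reductase, stood at 25.8 ± 2.46 against 39.2 ± 1.41 (-0.59), and the polymerase subunit Pole at 6.59 ± 0.494 against 13.7 ± 1.56 (-0.95). The helicase subunits went both ways. Mcm2 was higher in set 1, at 63.6, 68.3 and 66.3 against 37.8, 37.7 and 41.1 (0.75 ± 0.06, limma adjusted p = 3.6e-06), as were Mcm3 (0.34) and Mcm4 (0.26), while Mcm5 was lower (-0.33). Pcna, the sliding clamp, stood at 28.6 ± 2.23 and 27.3 ± 0.602 and was not called.

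The list of p53 targets and CDK inhibitors showed no common direction. Of 25 members 5 were higher and 3 lower in set 1, with a median of 0.01. The shares of the lists in this paragraph read against the 19.3% of all tested genes called higher and the 20.8% called lower. Cdkn2a, which encodes the inhibitors p16INK4a and p19ARF and accumulates in lines that slow down in culture, stood at 210.4 ± 14.5 against 155.4 ± 2.19 (0.43). Trp53 itself (0.28), its target Phlda3 (0.28) and Sesn1, a stress-induced regulator of mTORC1 (0.45), with Cdkn2b (0.31) were modestly higher. Cdkn1a (p21) stood at 1048.1 ± 81.5 and 925.9 ± 10.3 and was not called (limma adjusted p = 0.068). Gdf15, a secreted stress-responsive factor, stood at 80.0, 103.5 and 80.7 in set 1 and at 267.5, 238.2 and 210.6 in set 2 (-1.43 ± 0.10). The p53 targets Btg2 (-0.55) and Bax (-0.24) were lower as well. Of 20 serum-induced immediate early genes 1 was higher (Fosl1, 0.44) and 6 were lower. Fos stood at 26.2, 20 and 19 against 70.4, 87.3 and 50.5 (-1.61) and Fosb at 1.41 ± 0.170 against 8.19 ± 4.89 (-1.78), while Egr1 was not called. For Fos and Fosb the set 2 libraries spread more widely than the set 1 libraries. Of 21 targets of YAP and TAZ, transcriptional co-activators that respond to cell density and stiffness, 4 were higher and 8 lower. Gadd45b (-0.85) and F3 (-0.56) were among the lower ones, and Axl (0.41), Nt5e (0.41), Dock5 (0.32) and Ajuba (0.17) were the higher ones.

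Most fibrillar and associated collagens were lower in set 1. Of 17 fibrillar and associated collagens tested 13 were lower in set 1 and 3 higher, against 20.8% and 19.3% of all tested genes, and the median was -0.52. Without set 2 replicate 3 the number lower was 7. Col1a1 (chr11:94827050-94843868 on mm39), the main chain of type I collagen, stood at 37.2, 59.1 and 50.4 in set 1 and at 428.9, 411.3 and 590.5 in set 2. The sets were far apart, with a difference of -3.27 ± 0.15 (SE; limma adjusted p = 5.7e-08), the lowest of all 14059 tested genes. Its partner chain Col1a2 was at low values in both, 0.0560 ± 0.0345 and 0.999 ± 0.298 (-0.91). Col1a2, counted among the 13, passed the filter of 0.5 through the set 2 libraries alone, which fixed its direction in advance. The other groups lay near or below set 1: Col1a1 was at 46.4 in ApoM-treated, 39.6 in CYM50358-treated and 24.5 in wild-type cells, so set 2 stood alone. Col2a1, the type II collagen chain of cartilage, stood at 117.0, 124.6 and 100.0 against 460.5, 413.5 and 522.4 (-2.02 ± 0.09), with 358.7 in wild-type cells. Col11a1, a minor fibril chain, stood at 29.4 ± 8.21 against 87.2 ± 8.92 (-1.57), and Col12a1, a fibril-associated collagen, at 549.2 ± 72.0 against 975.1 ± 182.9 (-0.82). Those higher in set 1 were Col5a3, a minor chain of type V collagen, which stood at 31.1, 26.5 and 28.8 against 6.31, 7.37 and 10 (1.76 ± 0.14), and the chains of the beaded type VI collagen Col6a1 (0.66) and Col6a2. Col6a2 stood at 146.4, 112.5 and 80.8 against 39.2, 29.7 and 40.4 (1.58 ± 0.17) and at 5.70 in wild-type cells. The remaining type VI chain tested, Col6a3, was at low values and not called (0.26).

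Basement membrane genes showed no common direction. Of 22 genes tested, Col4a3 and Col4a4 included, 3 were higher and 7 lower in set 1, against 19.3% and 20.8% of all tested genes. The median was -0.05, and 4 were lower without set 2 replicate 1. Col18a1, whose product carries endostatin, stood at 1965.7, 2012.6 and 1743.2 against 1251.6, 1116.2 and 1214.4 (0.67 ± 0.08). Lama1, the laminin alpha chain of early basement membranes, stood at 7.78 ± 2.11 against 2.51 ± 0.628 (1.31), and Lamb3 was higher by 0.48. Lamb2, the laminin beta chain of the mature glomerular membrane, was lower at 226.3 ± 15.0 against 289.2 ± 11.3 (-0.35), as were Lama2 (-0.71) and both nidogens, Nid1 (-0.29) and Nid2 (-0.40). Lama5, Agrn and Hspg2, the other large components of the glomerular membrane, differed by 0.01 or less in size and were not called.

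Of 27 proteoglycans and glycoproteins tested 3 were higher in set 1 and 11 lower, against 19.3% and 20.8% of all tested genes, with a median of -0.23. Without set 2 replicate 1 the number lower was 7 and the median -0.14, and without set 2 replicate 3 the number lower was also 7. Eln, counted among the lower ones, passed the filter of 0.5 through the set 2 libraries alone (0.182 ± 0.175 against 1.21 ± 0.59). Thbs1 (thrombospondin 1, an activator of TGF-beta) stood at 4464.1, 5077.3 and 4805 in set 1 and at 11184.3, 10086.9 and 10210.1 in set 2 (-1.13 ± 0.13). Fbln5, a fibulin of elastic fibres, stood at 171.9 ± 21.1 against 366.3 ± 1.95 (-1.09), and the proteoglycan Vcan at 488.3 ± 52.7 against 809.7 ± 132.5 (-0.72). Ccn2 (connective tissue growth factor) stood at 2930.1 ± 254.6 against 4885.3 ± 1051 (-0.72). Efemp1, another fibulin, went the other way at 150.1, 151.9 and 142.9 against 57.3, 52.7 and 47.5 (1.48 ± 0.07), as did Spp1 (osteopontin, 0.36) and Matn2 (0.41). Fn1 (fibronectin) was not called, at -0.03. Of 27 matrix enzymes and inhibitors 9 were higher and 10 lower, against 19.3% and 20.8% of all tested genes, with a median of 0.01. The plasminogen activators Plau (20.1 ± 0.671 against 9.03 ± 0.822, 1.08) and Plat (412.8 ± 40.4 against 243.2 ± 22.1, 0.76) were higher in set 1. The aggrecanase Adamts4 (1.06) and the procollagen N-proteinase Adamts2 (0.77) were higher. The collagen cross-linking enzymes Lox (-0.54), Plod2 (-0.45) and Plod3 (-0.50) were lower, while Loxl4 (0.68), Loxl2 (0.21) and Plod1 (0.16) of the same families were higher.

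**Figure D3:**
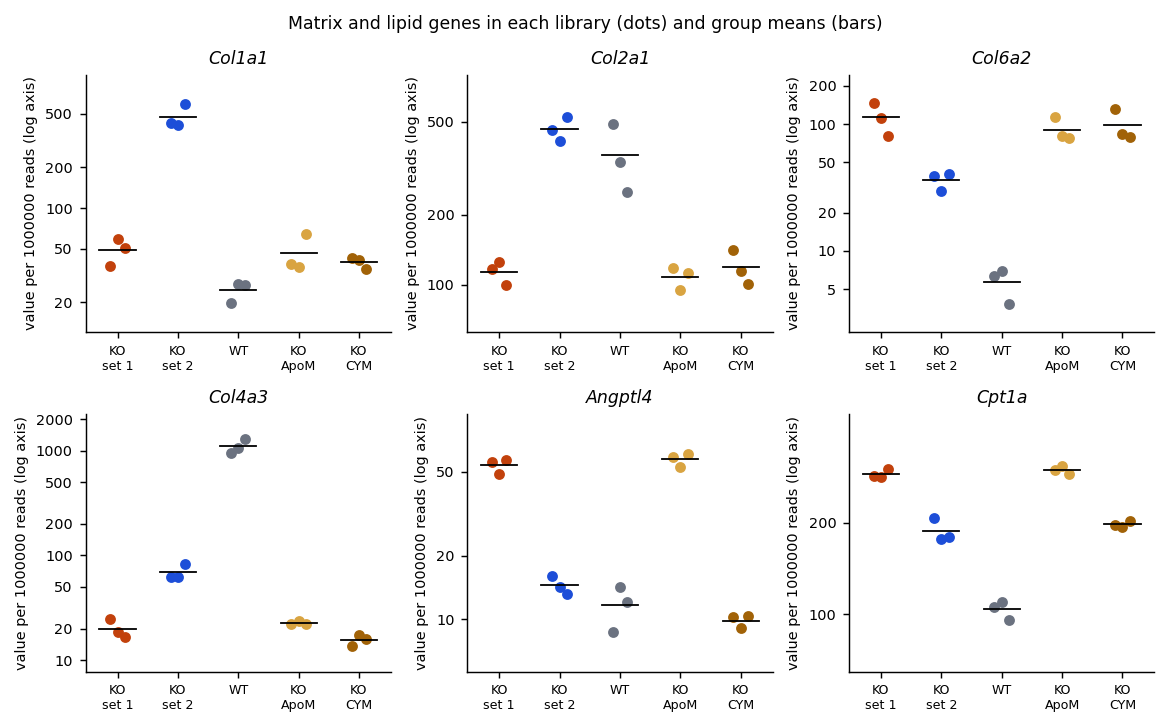
Values per 1000000 reads (log axes that do not start at 0) of 4 matrix and 2 lipid genes in each library (dots) with the group mean (bars), for vehicle knockout sets 1 and 2, wild-type cells (WT) and knockout cells given ApoM or CYM50358 (CYM). Col1a1 is high in set 2 alone, while Angptl4 is high in set 1 and with ApoM.

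Many genes of cholesterol synthesis and uptake were higher in set 1, by small steps. Of 25 tested 12 were higher, 0 lower and 13 not called, against 19.3% and 20.8% of all tested genes called higher and lower, and the median was 0.33. The number higher was 10 to 17 without 1 library, and the median was 0.20 without set 1 replicate 3. Hmgcs1, which makes the precursor of mevalonate, stood at 164.2, 185.2 and 200.6 against 114.5, 133.6 and 109.5 (0.62 ± 0.08, limma adjusted p = 0.00012). Fdps (84.0 ± 15.5 against 52.9 ± 9.51, 0.66), Fdft1 (0.56) and Idi1 (0.55) act further down the pathway and Dhcr7 (0.45) at its last step. Srebf2, the transcription factor that controls these genes, stood at 192.9, 203.6 and 216.5 against 147.5, 150.3 and 140.0 (0.48). No member of the list reached 2-fold. The summed level of the list was 1470.8 to 1827.9 in set 1, 1203.0 to 1429.9 in set 2, 991.7 to 1138.2 in wild-type and 1969.8 to 2307.7 in CYM50358-treated cells.

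In cholesterol export the calls were few and small. Of 15 efflux and LXR genes 4 were higher and 0 lower in set 1, against 19.3% and 20.8% of all tested genes. Pltp, the phospholipid transfer protein, stood at 224.3 ± 19.7 against 165.5 ± 13.8 (0.44), and the lysosomal cholesterol transporter Npc1 at 59.0 ± 2.11 against 48.4 ± 1.57 (0.28). Lipa (0.18) and Nr1h2 (0.14) passed narrowly. Lipa had limma adjusted p = 0.05 without set 1 replicate 1, 0.055 without set 2 replicate 2 and 0.094 without set 2 replicate 3. Lipa lies on chromosome 19, and with the median of that chromosome subtracted it differed by 0.016 (limma adjusted p = 0.84). The call on Nr1h2 was lost without any 1 library, at limma adjusted p of 0.051 to 0.12. Abca1, the main exporter, was not called (195.8 ± 28.1 and 237.0 ± 39.9), nor was Apoe at 1.05 ± 0.313 and 1.97 ± 0.710.

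Genes of fatty acid oxidation were more often higher than lower in set 1. Of 28 oxidation genes 15 were higher in set 1 and 2 lower, against 19.3% and 20.8% of all tested genes, with a median of 0.18. Pdk4, a kinase that turns off pyruvate dehydrogenase and so favours fatty acid use, stood at 92.7, 91.4 and 131.1 against 41.1, 40.9 and 35.8 (1.38 ± 0.12). Ucp2, an uncoupling protein of the inner mitochondrial membrane, stood at 66.9, 71.0 and 72.7 against 27.3, 20 and 24.0 (1.53 ± 0.10), and at 108.9 in wild-type cells. Cpt1a, which brings fatty acids into mitochondria, stood at 289.1 ± 10 against 187.5 ± 16.7 (0.63), and Acaa2 and Decr1 of the beta-oxidation spiral were both higher by 0.60. Cpt1c, the brain form of this enzyme, was lower at 74.2 ± 5.43 against 130.4 ± 10.1 (-0.81), as was the peroxisomal oxidase Acox3 (-0.40). Angptl4, a secreted inhibitor of lipoprotein lipase, stood at 55.4, 49.0 and 56.7 against 16.0, 14.2 and 13.2 (1.82 ± 0.09). Angptl4, Pdk4 and Cpt1a are targets of the PPAR fatty acid receptors. They were at 57.6, 113.0 and 298.7 with ApoM and at 9.84, 51.3 and 197.6 with CYM50358, so for these genes the CYM50358-treated libraries did not lie with set 1.

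Fatty acid synthesis and storage went both ways, with 9 of 26 genes higher, 6 lower and a median of 0.05. Among all tested genes 19.3% were called higher and 20.8% lower. The desaturases Fads1 (504.2, 508.8 and 512.2 against 359.1, 360.2 and 347.7, 0.51) and Fads2 (0.44) were higher in set 1. Both lie on chromosome 19, where 37.3% of the tested genes were higher. Plin2, the coat of lipid droplets, stood at 373.2 ± 33.5 against 284.5 ± 19.9 (0.39), and Pnpla2, the lipase that empties them, at 94.2 ± 7.43 against 72.7 ± 3.92 (0.37). Dgat1 (-0.37) and Dgat2 (-0.48), which make triglyceride, were lower. Fasn (fatty acid synthase) was not called, at 361.6 ± 9.69 and 383.1 ± 15.8.

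Of 29 genes of sphingolipids and sphingosine-1-phosphate (S1P) handling 9 were higher in set 1 and 2 lower, against 19.3% and 20.8% of all tested genes, with a median of 0.11. The number higher was 6 without set 2 replicate 3, and the median was 0.07 without set 1 replicate 3 and 0.17 without set 1 replicate 1. S1pr2 was the only S1P receptor called, at 38.9, 38.1 and 41.8 against 24.0, 27.8 and 23.6 (0.64 ± 0.08, limma adjusted p = 8.1e-05). S1pr3 stood at 15.1 ± 2.53 and 12.5 ± 1.81 and S1pr1 at 1.06 ± 0.452 and 0.606 ± 0.163, and neither was called. S1pr4, the target of CYM50358, had no read in set 1 and stood at 0.0221, 0.0586 and 0 in set 2. S1pr5 had none in either, and Apom, the S1P carrier, stayed at or below 0.0883 in every library of both sets. Sgpl1, the lyase that degrades S1P, stood at 298.8 ± 12.5 against 229.4 ± 12.1 (0.38), and the sphingomyelin synthase Sgms1 at 101.9 ± 7.93 against 70.3 ± 6.84 (0.53). Plpp3, a phosphatase of S1P and related lipids, was lower at 115.3 ± 5.49 against 168.0 ± 9.45 (-0.54), as was the S1P exporter Mfsd2b (-0.89), known from red cells. The kinase Sphk1 and the exporter Spns2 were not called.

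Targets of NRF2, the transcription factor of the oxidative stress response, were higher in set 1. Of 17 tested 15 were higher and 0 lower, against 19.3% and 20.8% of all tested genes, with a median of 0.60. Nqo1, a quinone reductase, stood at 15.1, 13.5 and 16.8 against 3.28, 4.32 and 4.40 (1.69 ± 0.14). Gstm1, a glutathione transferase, stood at 149.9, 165.1 and 158.9 against 60.4, 63.1 and 55.1 (1.39 ± 0.06), and Hmox1 (heme oxygenase 1) at 99.3 ± 5.12 against 46.7 ± 2.60 (1.07). The ferritin heavy chain Fth1 stood at 1582.3 ± 100.0 against 838.6 ± 17.1 (0.91), and the cystine importer Slc7a11 at 4.46 ± 1.33 against 1.46 ± 0.179 (1.12). The summed level of the list was 4567.8 to 4856.2 in set 1 and 2785.8 to 2802.1 in set 2, beside 2705.5 to 2962.4 in wild-type, 4830.9 to 5285.2 in ApoM-treated and 5574.4 to 6261.2 in CYM50358-treated cells.

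Most cytosolic ribosomal protein genes were also higher in set 1. Of 73 cytosolic ribosomal protein genes tested 67 were higher and 1 lower (Rps10, at 1.07 ± 0.556 against 2.18 ± 0.383), against 19.3% and 20.8% of all tested genes, with a median of 0.57. Rplp0 stood at 1075.3, 1205.1 and 1186.3 against 573.0, 553.6 and 548.4 (1.05 ± 0.07), with 506.5 in wild-type cells and 1157.6 and 1185.5 in ApoM- and CYM50358-treated cells. These transcripts are short, and the genes with the shortest transcripts had a median difference of 0.07. The cause of the ribosomal protein difference was not tested. Many ribosomal protein genes have near-identical pseudogene copies, so their counts are uncertain. Of 26 genes that respond to unfolded proteins or amino acid shortage 11 were higher and 3 lower, against 19.3% and 20.8% of all tested genes. The serine pathway genes Psat1 (91.0, 94.7 and 92.3 against 42.5, 43.5 and 44.1, 1.08) and Phgdh (0.42) and the asparagine synthetase Asns (0.65) were higher. Their regulator Atf4 (-0.28), Ddit3 (-0.27) and Ppp1r15a (-0.37) were lower. The chaperone Hspa5 was not called, at 0.04.

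**Figure D4:**
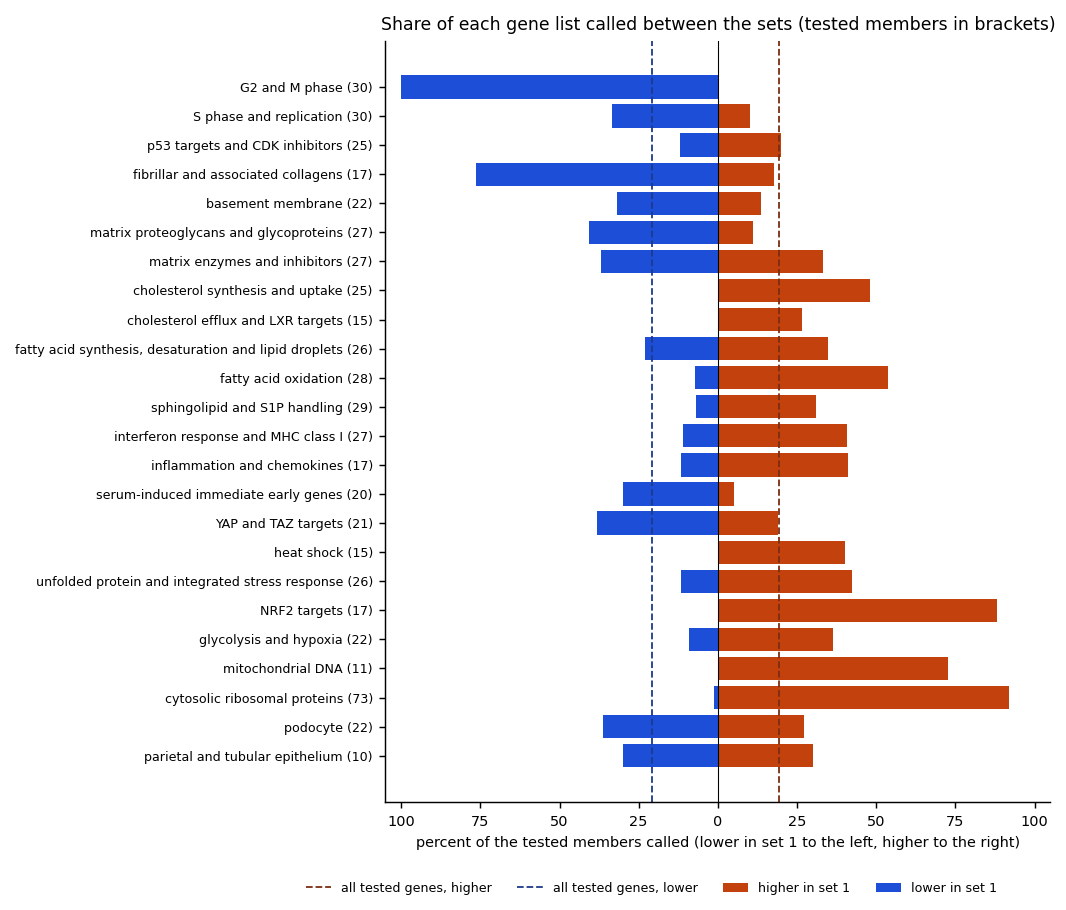
Percent of the tested members of each gene list that were called higher in set 1 (right) or lower (left), for lists with at least 10 tested members; dashed lines mark the 19.3% and 20.8% of all tested genes. G2 and M phase genes (30 of 30 lower) and ribosomal protein genes (67 of 73 higher) lie farthest out on the 2 sides.

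The largest falls among genes above the median level, besides those described above, came from several kinds of genes. Ms4a2, the beta chain of the high-affinity IgE receptor, stood at 26.6, 31.3 and 24.6 against 226.3, 229.2 and 202.3 (-2.95 ± 0.08, limma adjusted p = 1.6e-09) and at 127.1 in wild-type cells. The long nuclear RNA Neat1, the scaffold of paraspeckles, stood at 14.6, 7.28 and 15.2 against 60.9, 114.8 and 111.1 (-2.86 ± 0.25). Another nuclear RNA, Firre, stood at 15.7 ± 4.81 against 79.5 ± 7.38 (-2.31), and Rsrp1, an arginine- and serine-rich protein gene, at 44.8 ± 8.42 against 202.0 ± 29.2 (-2.16). For these 3 genes the wild-type libraries were at 98.2, 79.9 and 204.2, next to set 2, and the treated ones at 12.4 to 50, next to set 1. Malat1, also nuclear and abundant, was not called (626.3 ± 194.7 and 471.0 ± 118.0), and Kcnq1ot1, a nuclear antisense RNA, was higher in set 1 at 11.1 ± 2.11 against 6.37 ± 0.874 (0.71). Slco1a5 (an organic anion transporter, -2.27), Nat8l (the N-acetylaspartate synthase, -2.14), Fbln7 (a fibulin, -2.05), Ltbp2 (a fibrillin-like matrix protein, -1.98) and Sema3d (a guidance cue, -1.98) completed the lower end. At the other end were Selenop (the plasma selenium carrier, 1.45), Ltbp4 (a latent TGF-beta binding protein, 1.39), Car2 (carbonic anhydrase 2, 1.36) and the metalloproteinase Adamts16 (1.33).

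Among the autosomes and chromosome X, chromosomes 19 and 5 had the medians farthest from 0. Of 507 tested genes on chromosome 19, 189 (37.3%) were higher in set 1 and 73 (14.4%) lower, and their median difference was 0.16. Of 899 on chromosome 5, 75 (8.34%) were higher and 315 (35.0%) lower, with a median of -0.14. By comparison, 19.3% of all tested genes were called higher and 20.8% lower. Chromosome 19 took 5.26% to 5.42% of the reads in set 1 and 4.72% to 4.88% in set 2, and chromosome 5 took 5.58% to 5.71% and 6.09% to 6.16%. Neither pair of ranges overlapped, with an exact two-sided permutation p of 0.1 for each, the smallest that 3 against 3 libraries can give and one that 15 of the 22 chromosomes compared reached (0.147 after Benjamini-Hochberg adjustment). Medians of the other autosomes and of chromosome X lay between -0.05 and 0.05. The 16 tested mitochondrial DNA genes had a median of 0.66 with 11 higher and 0 lower. The 7 on chromosome Y had a median of -0.14, or -0.173 to -0.067 without 1 library, with 0 higher and 2 (28.6%) lower. Relative to set 2, ApoM- and CYM50358-treated cells lay at 0.15 and 0.16 on chromosome 19 and at -0.13 on chromosome 5. Wild-type cells lay at -0.17 on both. They lay farther from 0 on chromosomes 8 (-0.28), 10 (-0.27) and 15 (-0.18), and at 0.15 on chromosomes 4 and 6. Genes named above that lie on chromosome 19 include Fads1, Fads2, Cpt1a, Psat1, Fth1 and Sgms1 among those higher in set 1, and Neat1 and Ms4a2 among those lower.

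**Figure D5:**
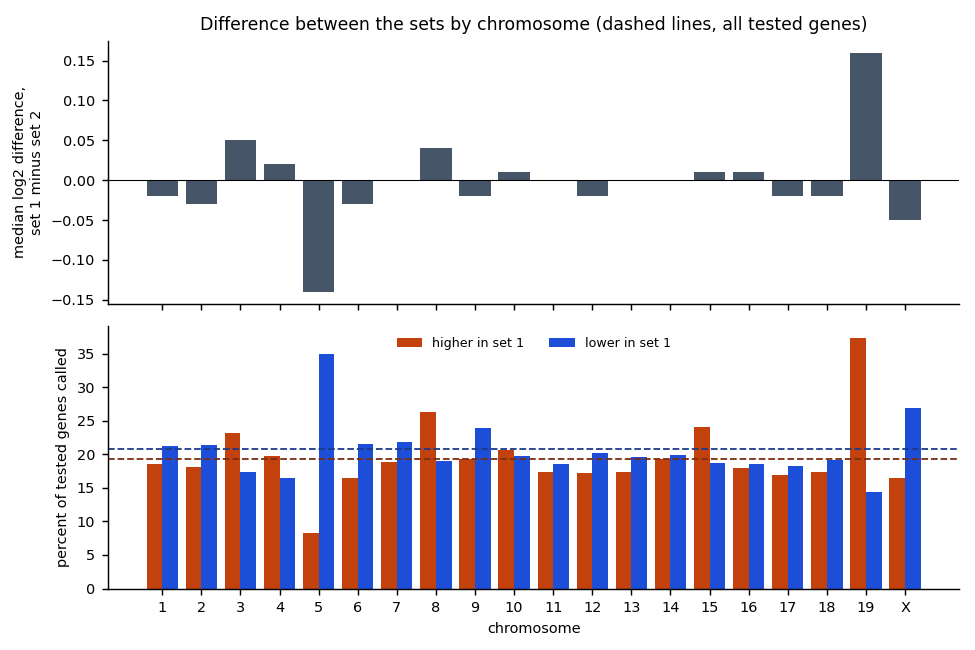
Median log2 difference between the sets over the tested genes of each autosome and of chromosome X (top; mitochondrial DNA and chromosome Y are not drawn) and percent of those genes called higher or lower in set 1 (bottom), with dashed lines at the 19.3% and 20.8% of all tested genes. Chromosome 19 stands out upward at 0.16 and chromosome 5 downward at -0.14.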

How the data were processed

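RNA was extracted with an RNeasy mini plus kit and libraries were made with a NuGEN mRNA-Seq kit, per the labels' protocols. The submitters' processing notes name the build mm39 and, among tools, STAR, edgeR, Trim Galore and FastQC. Their versions and the strand setting of counting are not given there, so overlapping and antisense genes are uncertain. The authors deposited normalized signal per gene, without a stated unit and scaled separately in each of 3 tables of 57132 genes; no per-sample column was left unused. Dividing by the smallest step of a library gave whole reads for 100.0% of values (tolerance 0.01). The tables were joined by gene ID, and the reads of the 6 vehicle knockout libraries were scaled together (TMM, edgeR 4.0.16) to values per 1000000, with the other 9 libraries scaled to the same reference.

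Genes at 0.5 or more in at least 3 of the 6 libraries were tested with limma 3.58.1 (R 4.3.3; trend, log2(value + 1), two-sided, no covariate, Benjamini-Hochberg adjustment, call under 0.05), the test fixed for normalized values; edgeR and DESeq2 1.42.0 on recovered reads were alternatives. Replicates differed beyond sampling noise (chi-square per degree of freedom 18.8 to 29.2), so none was a copy. The fit was checked on simulated data. Transcript lengths and GC came from GENCODE vM21, which matched 98.5% of tested genes, and promoters from RefSeq on GRCm38.p6, apart from the files' build.

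The sets and the 30 gene lists were chosen with earlier results of these data known. Genes were named by rule: Col4a3 to Col4a5, S1P receptors and Apom; the 12 largest rises and falls among called, non-overlapping genes above the median level with a named symbol; and up to 6 members with the smallest adjusted p for division, matrix and lipid lists, 4 for others. List members outside this rule were named after their values were seen. Lists carry no test of their own: their counts stand beside those of all tested genes. Some genes that this rule or the lists take are not reported here.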

Additional observations from a re-analysis of the deposited data

How the results depend on the processing

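Over 23 alternatives, none of the 145 called genes among 154 named and tested ones changed direction; 4 lost the call without 1 library (Lipa, Meis1, Nr1h2 and Rtn3) and 9 in other settings (these, Cd74 and 4 mitochondrial genes). Called genes numbered 5426 with edgeR, 5598 with DESeq2, 4705 without a filter on low values, 4508 with a filter at 5, 3571 at an adjusted p under 0.01 and 4103 to 5374 without 1 library, with no call in the opposite direction. Genes at least 2-fold higher numbered 348 at a pseudocount of 0.25, 63 at 4, 432 with edgeR and 440 with DESeq2, and those at least 2-fold lower 715, 132, 774 and 785, or 224 with a filter at 5. Members lower in set 1 numbered 6 of the S phase list with a filter at 5, and without a filter 8 collagens, 4 basement membrane genes, 5 proteoglycans and glycoproteins and 6 matrix enzymes. Without 1 library they numbered 7 to 12 collagens, 4 to 7 basement membrane genes and 7 to 10 proteoglycans and glycoproteins. Interferon genes higher in set 1 numbered 6 without a filter and 6 to 15 without 1 library. Subtracting each chromosome's median left 0 mitochondrial DNA genes called, by construction, and turned the medians of fatty acid synthesis to -0.022 and of the sex chromosome list to 0.072. The parietal list's median was -0.055 to 0.196 without 1 library. The chromosome 19 median was 0.138 scaled by total reads, 0.118 at a pseudocount of 4, 0.18 with DESeq2 and 0.139 to 0.159 without 1 library; that of chromosome 5 was -0.112 at a pseudocount of 4, and that of chromosome 2 was 0.001 with a filter at 5. The cause of these shifts was not tested. The deviations of same-numbered libraries from their set means correlated at 0.031, 0.012 and -0.0549, so the numbers were not taken to pair the samples, and set 1 replicate 1 correlated best with set 2 replicate 3 (0.141). With a replicate block 5512 genes were called, 2642 higher and 2870 lower. At 45417221 reads or more per library, genes under about 0.5 per 1000000 reads were left untested.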

Other observations

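Some immune and stress genes were called in each direction. The shares of the lists below read against the 19.3% of all tested genes called higher and the 20.8% called lower. Of 27 interferon and MHC class I genes 11 were higher in set 1 and 3 lower, and 6 were higher without set 1 replicate 2. The chemokine Cxcl10 stood at 34.0, 30.6 and 41.9 in set 1 and at 8.96, 9.26 and 10.2 in set 2 (1.79 ± 0.11), and the immunoproteasome subunit Psmb8 at 17.2 ± 0.522 against 7.89 ± 1.69 (1.05). Irf1, a transcription factor of the interferon response, was higher by 0.82, while Ifit3, an antiviral effector (-0.67), Nlrc5 (-0.75) and Ifi27 (-0.20) were lower. Of 17 inflammation genes 7 were higher and 2 lower. Il1rl1, the receptor of interleukin 33, stood at 50.2 ± 5.89 against 20.5 ± 4.42 (1.26), and complement C3 at 27.7 ± 1.57 against 55.5 ± 6.55 (-0.97), with 250.4 in wild-type cells; Ptgs2 was also lower (-0.74). Of 15 heat shock genes 6 were higher and 0 lower, with Hspa8 the farthest at 1084.3 ± 69.2 against 707.5 ± 28.9 (0.61). The share called in either direction was near the 40.1% of all tested genes, but all 6 calls were in 1 direction. Of 4 cold-induced genes Rbm3 (0.55) and Rtn3 (0.18) were higher and Srsf5 (-0.78) and Cirbp (-0.54) lower. Rtn3 lost its call without set 1 replicate 2 (limma adjusted p = 0.076), set 1 replicate 3 (0.062) or set 2 replicate 3 (0.14). It lies on chromosome 19, and with the median of that chromosome subtracted it differed by 0.015 (limma adjusted p = 0.86).

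Of 22 genes of glycolysis and hypoxia 8 were higher in set 1 and 2 lower. Ndrg1, a hypoxia-responsive gene, stood at 318.4 ± 23.2 against 177.0 ± 12.6 (0.84), and Vegfa, the endothelial growth factor that podocytes supply to the glomerulus, at 43.4, 40.9 and 46.6 against 94.1, 102.4 and 94.6 (-1.14 ± 0.07). The kinase Pdk1 was lower as well (-0.30). Of 11 mitochondrially encoded genes 8 were higher and 0 lower; mt-Co1 stood at 10394, 9441.3 and 11739.8 against 4037.4, 5106.7 and 6263.3 (1.05 ± 0.17).

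Some genes with large differences lay below the level the naming rule asks for and were chosen after their values were seen. The alcohol dehydrogenase Adh7 stood at 24.7 ± 4.91 in set 1 and 0.444 ± 0.183 in set 2 (4.14), the highest difference of all tested genes. Pla2g7, a secreted phospholipase, stood at 30.6 ± 6.19 against 3.39 ± 0.369 (2.83), and xanthine dehydrogenase Xdh at 27.7 ± 4.77 against 3.89 ± 0.153 (2.54). Genes with at least 10 reads in every library of 1 set and no read in the other numbered 4 for set 1, among them Cyp1a1 (23, 19 and 48 reads), and 18 for set 2, among them the endothelin receptor Ednra (29, 26 and 32 reads).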
